A study of Danio rerio with 6 samples.

Results

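Genes used by the ion-transporting cells of the skin were followed in whole zebrafish (Danio rerio) embryos at 4 days post fertilization. The set holds 10 genes, taken by symbol from the 31452 genes of each deposited table, and all 10 were found. They are the calcium genes trpv6, igfbp5a, atp2b1a and stc1, the acid-base genes ca2 and gcm2, the sodium genes slc12a10.2 and atp1b1b, and the forkhead factors foxi3a and foxi3b. The gene trpv6 was chosen by its fold change and adjusted p between these same groups, so its difference is given as a description, and the others were selected as genes of the same skin cells. The 6 libraries fall into 3 from glut12 morphants, given a splice-blocking glut12 morpholino, and 3 from controls, given a control morpholino. Each library came from total RNA of 10 pooled embryos. A morpholino is an antisense oligomer that acts throughout the embryo, and its effect on each cell type was not measured. The labels name no genotype or strain. Whether each pool was a clutch of its own is not said there, and the p-values speak only of spread among these 6 pools, part of which may be technical.

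Freshwater fish lose salts to the water and take them back through ionocytes, which in zebrafish embryos lie scattered in the skin. Cells rich in the sodium-potassium pump take up calcium through the apical channel Trpv6. Cells rich in the V-type proton pump secrete acid and take up sodium, and a further type takes up sodium and chloride through an Slc12a10 cotransporter. The forkhead factors Foxi3a and Foxi3b specify ionocytes in zebrafish. Many of these genes are also used in the kidney, the ear, the gut or the brain, so values of whole embryos cannot be assigned to the skin.

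The deposited values are rounded read counts scaled by library size factors, called normalised read counts here. Their totals lay between 10397713 and 11762915 per library, and depths were estimated from the steps between low values at 7550000 reads for control 1 and up to 15170000 for morphant 1. The library of control 1 stood apart, with r = 0.961 and r = 0.955 against the other controls across 15942 genes with a mean of at least 50, where controls 2 and 3 gave r = 0.987. Genes are not independent replicates in these correlations. Normalised read counts of the targeted gene, listed as slc2a12, were 98, 97 and 90 in the morphants, against 160, 145 and 143 in the controls. The change on the log2 scale was -0.65 ± 0.13 (SE, 3 libraries a group; limma adjusted p = 0.158 with Benjamini-Hochberg), and splice blocking need not lower a read count.

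The calcium channel gene was the one member past the threshold. In the morphants trpv6 (ENSDARG00000014496, chromosome 16 of build Zv9) gave normalised read counts of 713, 965 and 916, against 369, 375 and 324 in the controls. All 3 morphants lay above all 3 controls, and the lowest morphant was morphant 1. The mean was 865 ± 134 in morphants and 356 ± 27.9 in controls (SD, n = 3 per group). This is a log2 fold change of 1.27 ± 0.13 (SE), or 2.41-fold with a 95% interval of 1.96-fold to 2.96-fold. The adjusted p that chose it was 0.0394 (limma with Benjamini-Hochberg over 26082 genes), among 6 genes higher (0.023% of those tested) and 0 lower (0% of those tested). Without adjustment 2346 genes were higher and 1808 lower at a limma p of 0.05, and voom in limma on estimated reads called 8 higher and 2 lower. Scaling libraries to equal totals shifted all genes by a median of 0.11 on the log2 scale and made that unadjusted split 3780 to 775. Voom as run here also scaled each library by its total, with a median of 0.10. Results by voom and with equal totals are therefore not separate checks of the scaling.

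The size of the trpv6 difference varied little with the libraries used, and its adjusted p varied more. Its log2 fold change lay between 1.18 and 1.40 with 1 library left out. With morphant 1, 2 or 3 left out in turn the limma adjusted p was 0.0472, 0.484 and 0.302, and with control 1, 2 or 3 left out 0.11, 0.243 and 0.185. In whole embryos more cells of a type and more RNA per cell cannot be told apart. In the RefSeq gene order of assembly GRCz12tu the gene si:dkey-26c10.5 overlaps trpv6, and the use of strand in counting is not given, so reads of the pair may be shared. That gene gave normalised read counts of 64, 100 and 112 in the morphants and 81, 72 and 78 in the controls, and its groups overlapped. It was the single one of the 6 nearest protein-coding neighbours found in the files by symbol, the others being leng8, zgc:92606, ephb6, slc2a3b and rasip1.

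**Figure D1:**
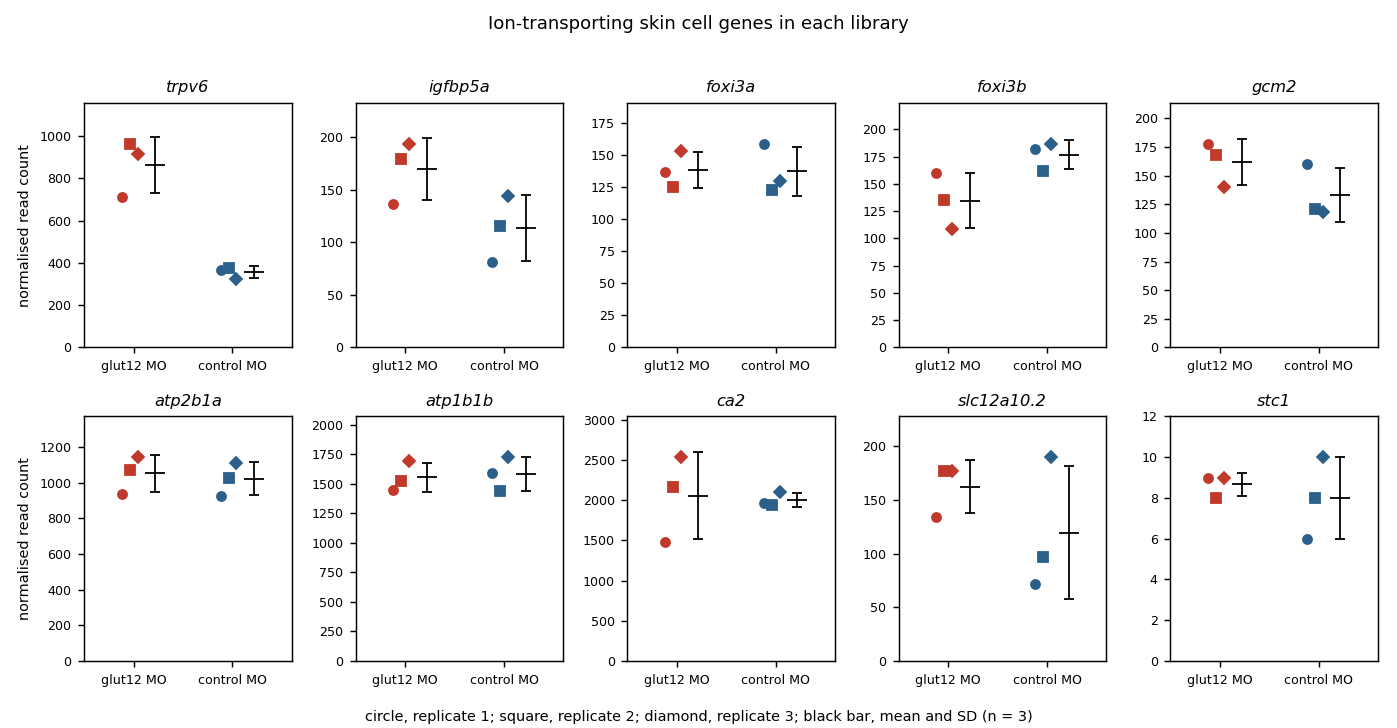
Normalised read counts (vertical axes, each from 0) of the 10 genes in glut12 MO (left, red) and control MO (right, blue) libraries. Points are libraries and black bars are means with SD (n = 3). The trpv6 values of the morphants, 713 to 965, all lie above those of the controls, 324 to 375, and the foxi3b values of the morphants all lie below, while the groups overlap for the other 8 genes.

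None of the 9 other members passed the test over all genes. Not passing does not show that a gene was unchanged, here or in the lists below. TENM3 and stat5.1, named below for a pattern near that of trpv6, did not pass either. Their log2 fold changes were 1.16 ± 0.18 and 1.34 ± 0.23 (limma adjusted p = 0.127 each). The groups did not overlap for 1 of the 9 members, foxi3b, where 21.8% of all genes tested had groups apart in either direction. At an unadjusted limma p of 0.05, 1 was higher and 1 lower, against 8.99% and 6.93% of all genes tested. By voom on estimated reads, which also scales by library totals, 0 of the 9 passed as well. At an unadjusted p of 0.05 voom gave 2 higher and 0 lower, where over all 26082 genes it gave 3811 higher and 833 lower. The median log2 fold change of the 9 in the main comparison was 0.04, against 0.00 over all genes tested. Of the 9, 7 were positive, where 50.5% of all genes were. With equal library totals the median was 0.15 against 0.11 over all genes. It was -0.02 without morphant 3 and -0.01 without control 1, each with 4 of 9 positive, and without control 2 it was 0.04 with 5 of 9 positive, so the number of positive members rested on single libraries. For 8 of the 9 the 95% interval of the log2 fold change lay wholly below the trpv6 value of 1.27, and for 7 of the 9 it included 0. The trpv6 value was chosen from these same groups, so its place above the others is a description. Its own 95% interval ran from 0.97 to 1.57. The intervals of igfbp5a, reaching 1.12, and slc12a10.2, reaching 1.28, overlapped it. The 9 genes span a wide range of depth, and stc1, at an estimated 4 to 13 reads per library, was measured least precisely.

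Among the calcium genes, igfbp5a showed the largest positive log2 fold change of the 9. It encodes a secreted binding protein of insulin-like growth factors that calcium-transporting ionocytes of zebrafish make. Its normalised read counts were 137, 179 and 194 in the morphants, against 81, 116 and 144 in the controls. The groups overlapped, since control 3 lay above morphant 1. The log2 fold change was 0.60 ± 0.23 (95% interval 0.08 to 1.12; limma adjusted p = 0.272). It was 0.38 without control 1, the lowest library for this gene, and 0.79 without control 3.

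The plasma membrane calcium pump gene atp2b1a stayed within the spread of its replicates. It gave normalised read counts of 938, 1072 and 1142 in the morphants and 927, 1028 and 1112 in the controls. In each group replicate 1 was the lowest library. The fold was 1.03 with a 95% interval of 0.869 to 1.21 (limma adjusted p = 0.887), an interval that holds no change as large as that of trpv6. The genes listed as stc1 and stc1l encode stanniocalcins, a family that includes a hormone lowering calcium uptake in fish. Which of these symbols names that hormone was not settled here, and stc1l is given with the wider lists. The gene listed as stc1 gave normalised read counts of 9, 8 and 9 in the morphants and 6, 8 and 10 in the controls. At this depth the 95% interval ran from 0.648-fold to 1.84-fold (limma adjusted p = 0.88), so neither a fall nor a rise within that range is excluded.

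The acid-base genes overlapped between the groups. Cytosolic carbonic anhydrase, encoded by ca2, supplies protons and bicarbonate for exchange. Its normalised read counts were 1475, 2163 and 2533 in the morphants, against 1963, 1942 and 2102 in the controls. The morphants were spread more widely than the controls, with an SD of 537 against 87.0, and the lowest and the highest of the 6 values were both morphants. The log2 fold change was 0.00 ± 0.18 (limma adjusted p = 0.997), and 0.23 without morphant 1. The transcription factor gene gcm2 is required in zebrafish for the cells rich in the proton pump. It gave normalised read counts of 178, 168 and 140 in the morphants and 160, 121 and 118 in the controls. Its log2 fold change of 0.29 ± 0.16 did not pass (limma adjusted p = 0.418), and control 1 lay above morphant 3.

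Among the sodium genes, slc12a10.2 encodes a sodium-chloride cotransporter of zebrafish ionocytes. It gave normalised read counts of 134, 177 and 177 in the morphants, against 72, 97 and 190 in the controls. Control 3 was the highest of all 6 libraries and control 1 the lowest. The log2 fold change of 0.55 ± 0.32 did not pass (limma adjusted p = 0.429). It was 0.94 without control 3 and 0.25 without control 1, so a single control library moved it by more than 1.5 times. The gene lies beside close copies on chromosome 7, with which it may share reads. The sodium-potassium pump beta subunit gene atp1b1b gave normalised read counts of 1449, 1524 and 1690 in the morphants and 1589, 1439 and 1726 in the controls. The groups overlapped almost completely, with a fold of 0.982 and a 95% interval of 0.841 to 1.15 (limma adjusted p = 0.916).

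The forkhead genes were the last of the set, and neither passed the test. For foxi3b, normalised read counts were 160, 135 and 109 in the morphants, against 182, 162 and 187 in the controls. All 3 morphants lay below all 3 controls, by a small margin between morphant 1 and control 2. The log2 fold change was -0.41 ± 0.16 (95% interval -0.78 to -0.04; limma adjusted p = 0.288), and it was negative under all 16 alternatives, from -0.54 to -0.26. It was -0.26 without morphant 3, the lowest library. For foxi3a, normalised read counts were 137, 125 and 153 in the morphants and 159, 123 and 130 in the controls, with a log2 fold change of 0.01 ± 0.15 (limma adjusted p = 0.973). The difference between the changes of the pair was not tested.

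**Figure D2:**
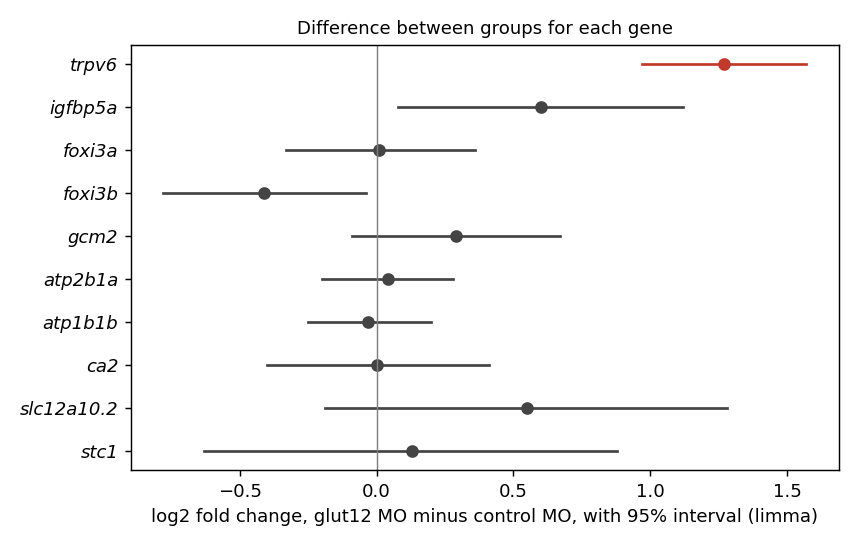
Log2 fold change of glut12 MO minus control MO (horizontal axis) with its 95% interval from limma, for the 10 genes. The trpv6 value of 1.27 lies above the whole interval of every other gene except slc12a10.2, whose interval reaches 1.28, and intervals of 7 of the other 9 genes include 0. That value was chosen from these same groups, so its place is a description. The trpv6 interval, 0.97 to 1.57, overlaps those of igfbp5a and slc12a10.2.

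A ratio of genes within a library depends on how the library was scaled only through rounding and the 1 added to each value. Both matter most for stc1, the member with the lowest values. The ratio of trpv6 to the geometric mean of the 9 other genes (each value plus 1) was 3.17, 3.97 and 3.64 in the morphants, against 1.83, 1.81 and 1.31 in the controls. The groups did not overlap, and the mean difference on the log2 scale was 1.14. That geometric mean itself was 225, 243 and 252 in the morphants and 202, 208 and 248 in the controls, with overlap. Set against each of the 9 genes singly, the trpv6 ratio was higher in all 3 morphants than in all 3 controls for 9 of 9. The separation was narrow against igfbp5a, at 5.17, 5.37 and 4.70 in the morphants and 4.51, 3.21 and 2.24 in the controls. It was narrower still against slc12a10.2, at 5.29, 5.43 and 5.15 in the morphants and 5.07, 3.84 and 1.70 in the controls. It was widest against foxi3b, at 4.43, 7.10 and 8.34 in the morphants and 2.02, 2.31 and 1.73 in the controls. These ratios contain the trpv6 values that chose the gene and were given no test. No such ratio was taken to genes outside the set, so the separation is not shown to be particular to these 9.

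**Figure D3:**
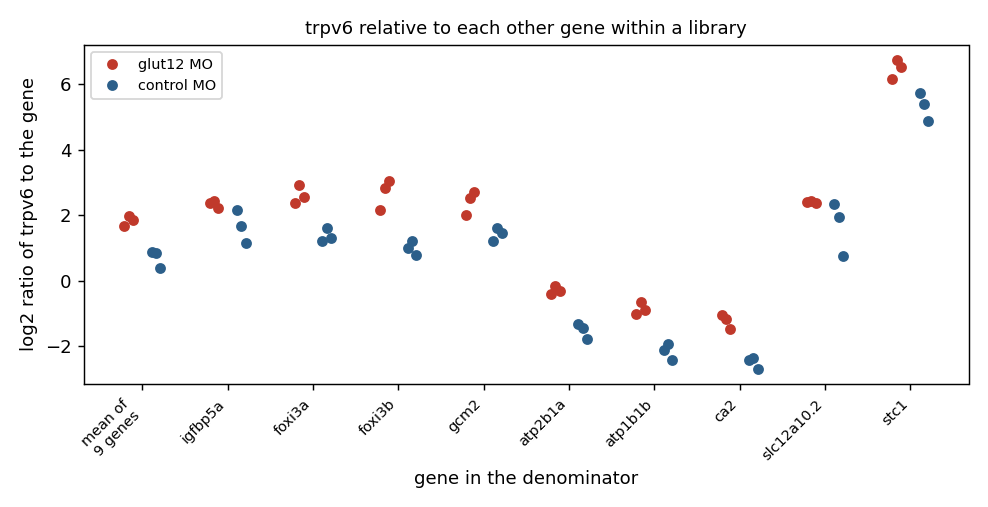
Log2 ratio of trpv6 to the mean of the 9 other genes and to each of them (vertical axis, with the gene in the denominator along the horizontal axis) in each glut12 MO (red, left of each pair) and control MO (blue) library. The red points lie above the blue ones in every column, with the narrowest gap for slc12a10.2, where the lowest morphant ratio before taking log2 was 5.15 and the highest control ratio 5.07.

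Library order was partly shared among the members. Morphant 1 was the lowest morphant for 6 of the 10 genes, among them trpv6, igfbp5a, ca2 and slc12a10.2, and control 3 was the highest control for 7. For trpv6 itself control 3 was the lowest control. No such count was made over all genes tested, so this order is not shown to be particular to the members. By the root mean square difference of log2 values centred on each gene's mean over the 6 libraries, igfbp5a was closest to trpv6 among the members, at 0.45. It ranked 457 among 15942 genes with a mean of at least 50, and gcm2 ranked 1945 at 0.55. The ranks of slc12a10.2, atp2b1a, ca2, foxi3a and atp1b1b lay between 3464 and 7321. The least like trpv6 of the members compared was foxi3b, at 0.89 and rank 15281, and stc1 was below the minimum mean. The 5 genes nearest to trpv6 were none of the members. They were CR925880.1, a clone-based symbol, at a difference of 0.10, DIP2B (2 of 2) and TENM3 at 0.11 each, and bmpr2b and stat5.1 at 0.20 each. The gene bmpr2b encodes a type II receptor for bone morphogenetic proteins, and stat5.1 a transcription factor that acts downstream of cytokine and prolactin receptors. Normalised read counts of stat5.1 were 62, 86 and 100 in the morphants, against 31, 28 and 36 in the controls. These genes were chosen for a pattern that contains the group difference, so they are a description. The differences and ranks of the members rest on that same pattern. They partly restate the fold changes and were not tested.

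The wider lists cover calcium, acid, sodium, chloride and potassium transport, ionocyte specification and hormones that act on them. They gave 153 tested gene rows other than trpv6, and limma called 0 of them in either direction over all genes. At an unadjusted p of 0.05, 13 were higher and 23 lower, set against 8.99% and 6.93% of all genes tested, and voom likewise called 0. With equal library totals these counts were 25 and 8. Groups did not overlap for 47 of the 153 rows, 16 higher and 31 lower. Of all 26082 genes tested 21.8% did not overlap, 3020 higher and 2670 lower. With library weights estimated by limma, igf1ra and notch1b were called higher and atp6v1g1 and stc1l lower, and under the other 15 alternatives none of these rows was called. Over all genes, library weights called 217 higher and 112 lower, which also stands beside the calls with that setting below. The lowest adjusted p of the 153 in the limma comparison described first was 0.147 for atp6v1g1, and over the alternatives other than library weights it lay between 0.101 (voom) and 0.573 (without morphant 2). Counts at an unadjusted p in the lists below, with no setting named, stand against 8.99% higher and 6.93% lower of all genes tested. With equal library totals 3780 of all genes were higher and 775 lower, and the median log2 fold change over all genes was 0.11. The lists' counts under that scaling are given where they differ. By voom 3811 of all genes were higher and 833 lower, and with library weights 2931 were higher and 2239 lower.

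**Figure D4:**
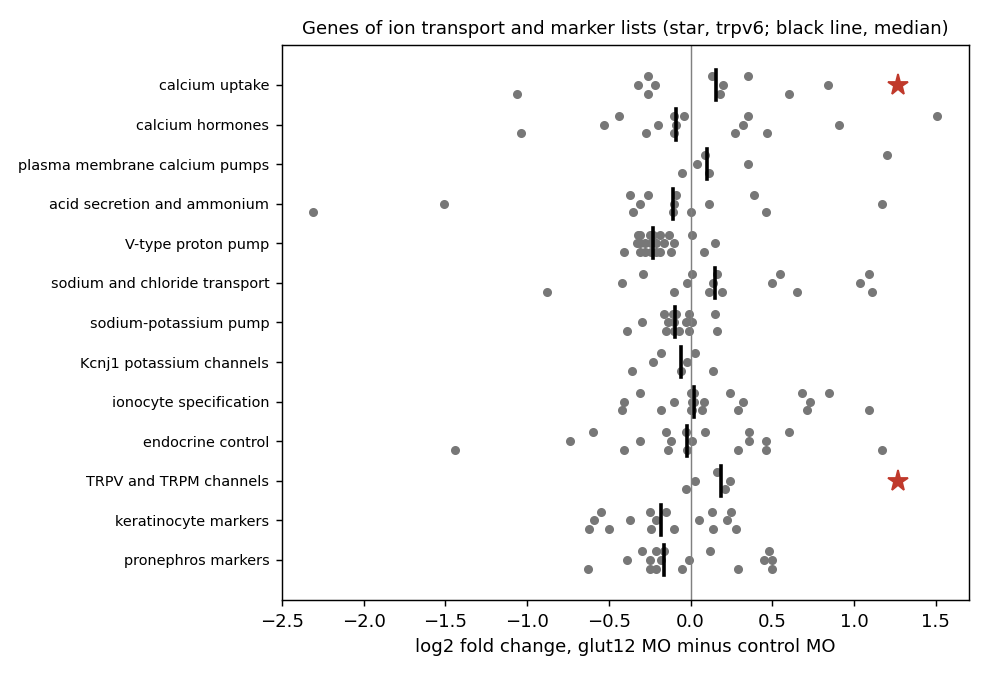
Log2 fold change of glut12 MO minus control MO (horizontal axis) for each tested gene of 11 ion transport lists and of the keratinocyte and pronephros marker lists. Grey points are genes, black lines medians and red stars trpv6, at 1.27. The V-type proton pump genes sit in a narrow band with a median of -0.23 and 20 of 23 below 0.

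Of 12 tested calcium uptake genes, trpv6 alone was called, with 7 positive and 5 negative and a median of 0.15 (0.26 with equal library totals and 0.03 without control 1). Of the 15 symbols in this list 3 were not found. The channel, pump and exchanger genes of the list were all positive. The 5 negative genes included stc1l and the calcium-binding protein genes, so the split is not one among transporters. At an unadjusted p of 0.05, 2 of the 12 were higher, trpv6 included, and 3 lower. With equal library totals and by voom 4 were higher and 1 lower at that p. The gene listed as stc1l, a stanniocalcin gene on chromosome 10, gave normalised read counts of 35, 30 and 26 in the morphants, against 72, 72 and 50 in the controls. All morphants lay below all controls, and its log2 fold change of -1.06 ± 0.23 did not pass over all genes (limma adjusted p = 0.164, range over the alternatives 0.0467 to 0.573). The calcium exit genes were not called. The pump gene atp2b2 had values of 533, 657 and 700 in the morphants and 351, 601 and 566 in the controls. Its log2 fold change was 0.35 ± 0.20 (limma adjusted p = 0.432). The sodium-calcium exchanger gene slc8a1b had 414, 435 and 458 in the morphants, against 117, 320 and 383 in the controls, where control 1 was far below the other controls. All morphants lay above all controls for slc8a1b, with a log2 fold change of 0.84 ± 0.38 (limma adjusted p = 0.325). That change lay between 0.31 and 1.16 with 1 library left out. The calcium-binding protein genes calb2a and calb2b, which mark neurons, had log2 fold changes of -0.26 ± 0.09 and -0.32 ± 0.10 (limma adjusted p = 0.25 and 0.223).

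Of the 6 plasma membrane calcium pump genes 5 were positive, with a median of 0.10 (0.22 with equal library totals and 0.01 without control 1), and 0 were called. Unadjusted limma p was below 0.05 for 1 of them. This was atp2b3b, at 437, 607 and 646 in the morphants against 92, 349 and 432 in the controls, with control 1 again the lowest by far. The 15 rows of calcium hormones, their receptors and vitamin D genes had a median of -0.09. It was 0.02 with equal library totals, 0.03 without morphant 1, 0.05 without control 1 and -0.20 without control 2. Of these rows 0 were called by limma. At an unadjusted p of 0.05, 2 were higher and 1 lower, but 2 higher and 0 lower with equal library totals and by voom. The vitamin D receptor gene vdrb had values of 38, 48 and 48 in the morphants, against 25, 15 and 33 in the controls (log2 fold change 0.91 ± 0.31, limma adjusted p = 0.245). The parathyroid hormone gene pth1a had low values of 6, 4 and 7 in the morphants and 0, 2 and 3 in the controls. Calcitonin-family gene calca had values of 89, 72 and 81 in the morphants and 126, 111 and 94 in the controls (limma adjusted p = 0.275).

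Of 14 genes of acid secretion and ammonium transport 0 were called by limma, with 2 higher and 2 lower at an unadjusted p of 0.05. Their median was -0.11, -0.00 with equal library totals, 0.02 by voom, and between -0.29 (without control 2) and -0.02 (without control 3) with 1 library left out. The ammonia channel gene rhcga gave normalised read counts of 45, 150 and 134 in the morphants, against 249, 253 and 340 in the controls. The groups did not overlap, and its log2 fold change of -1.51 ± 0.41 did not pass over all genes (limma adjusted p = 0.198). It was -0.97 without morphant 1, the lowest library. Its relative rhcgl1 varied widely, with values of 4, 32 and 44 in the morphants and 125, 42 and 167 in the controls. Morphant 1 was the lowest for both rhcga and rhcgl1. A further relative, rhcgb, had values of 197, 212 and 307 in the morphants and 358, 201 and 308 in the controls. The groups overlapped for rhcgb, with a log2 fold change of -0.26 ± 0.24 (limma adjusted p = 0.618). The membrane-anchored carbonic anhydrase gene ca4a had values of 42, 49 and 39 in the morphants, against 8, 30 and 26 in the controls, with control 1 lowest. The sodium-proton exchanger gene slc9a3.2 had values of 27, 52 and 57 in the morphants and 44, 61 and 65 in the controls (limma adjusted p = 0.591).

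The 23 rows of the V-type proton pump, which acidifies organelles in all cells besides its role in acid-secreting ionocytes, had a median of -0.23. Of these 20 were negative, where 49.5% of all genes were, and 0 were called by limma, with 12 lower and 0 higher at an unadjusted p of 0.05, against 6.93% and 8.99% of all genes tested. With equal library totals 19 of 23 were negative, the median was -0.12 and 2 were lower at that p. In the deposited values groups were apart for 0 higher and 14 lower, where 21.8% of all genes tested had groups apart in either direction. The summed values were 25936, 26554 and 26852 in the morphants and 33632, 29742 and 29751 in the controls, so control 1 was the highest, and the median without it was -0.18. The subunit gene atp6v1g1 had values of 1564, 1605 and 1641 in the morphants, against 2265, 2047 and 2096 in the controls, and a log2 fold change of -0.41 ± 0.08 (limma adjusted p = 0.147). The catalytic subunit gene atp6v1aa had 2430, 2184 and 2193 in the morphants and 2895, 2526 and 2607 in the controls.

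Of 16 rows of sodium and chloride transport 11 were positive, with a median of 0.15. That median was 0.26 with equal library totals, 0.08 without morphant 3, 0.04 without control 2 and 0.28 without control 3. Among these rows 0 were called by limma, with 3 higher and 1 lower at an unadjusted p of 0.05. With equal library totals and by voom 4 were higher and 1 lower at that p. The anion exchanger gene slc26a6 gave normalised read counts of 102, 97 and 138 in the morphants, against 41, 56 and 67 in the controls. All morphants lay above all controls (log2 fold change 1.04 ± 0.23, limma adjusted p = 0.165). The close relative of the member cotransporter, slc12a10.3, had a lower mean in the morphants, at 16, 24 and 20 in the morphants and 26, 45 and 44 in the controls (log2 fold change -0.88 ± 0.30, limma adjusted p = 0.242). The bicarbonate cotransporter gene slc4a4b, which works in the same cells as slc12a10.2 in zebrafish, had 152, 213 and 204 in the morphants and 36, 114 and 161 in the controls. Control 1 was again the lowest there.

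The 16 sodium-potassium pump genes had a median of -0.09 with 13 negative, where the median over all genes was 0.00. With equal library totals their median was 0.02 with 5 negative, where the median over all genes was 0.11. Among the 16, 0 were called by limma. At an unadjusted p of 0.05, 0 were higher and 2 lower, but 2 higher and 2 lower with equal library totals and by voom. The alpha subunit gene atp1a1a.3, one of 5 close copies on chromosome 1 that may share reads, had values of 492, 499 and 552 in the morphants, against 687, 671 and 666 in the controls. Its groups were well separated, with a log2 fold change of -0.39 ± 0.09 (limma adjusted p = 0.163). Its neighbour atp1a1a.5 had 244, 292 and 334 in the morphants and 307, 317 and 329 in the controls. The copy atp1a1a.1 had 8141, 9243 and 9037 in the morphants, against 7787, 7817 and 8050 in the controls. All morphants lay above all controls for atp1a1a.1, with a log2 fold change of 0.16 ± 0.08 (limma adjusted p = 0.385). Of the 16 genes, groups were apart for 1 higher and 4 lower, where 21.8% of all genes tested had groups apart. The 7 Kcnj1 potassium channel genes, of which 6 are close copies on chromosome 18, had a median of -0.06 (0.06 with equal library totals, 0.08 without morphant 1, -0.27 without morphant 3 and -0.23 without control 3). Among these 0 were called by limma, and 0 had an unadjusted p below 0.05.

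Of 22 rows of ionocyte specification, 0 were called by limma, with 2 higher and 2 lower at an unadjusted p of 0.05 and a median of 0.02. That median was 0.13 with equal library totals, 0.12 without control 2 and -0.01 without control 1. Of the 22 rows 17 were positive, where 50.5% of all genes were, but 11 with library weights or without control 1. With equal library totals and by voom 4 were higher and 0 lower at that p, and with library weights notch1b was called higher. The epidermal stem cell factor gene tp63 had values of 590, 650 and 657 in the morphants and 739, 652 and 646 in the controls, and the Delta ligand gene dlc had 549, 491 and 500 in the morphants and 481, 490 and 496 in the controls. Notch signalling selects ionocyte precursors in the skin. The receptor gene notch1b had values of 355, 458 and 452 in the morphants, against 125, 224 and 272 in the controls (log2 fold change 1.09 ± 0.26, limma adjusted p = 0.183). The receptor gene notch3 had 1799, 1979 and 1837 in the morphants and 1337, 1505 and 1661 in the controls (limma adjusted p = 0.217). Both receptors are used widely outside the skin, and control 1 was the lowest library for both.

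Of 19 rows of endocrine control, 0 were called by limma, with 2 higher and 0 lower at an unadjusted p of 0.05 and a median of -0.02 (0.09 with equal library totals and 0.06 without control 1). With equal library totals 6 were higher and 0 lower at that p, by voom 5 were higher and 1 lower, and with library weights igf1ra was called higher. The insulin-like growth factor receptor gene igf1ra gave normalised read counts of 160, 254 and 254 in the morphants, against 65, 114 and 121 in the controls. Its log2 fold change was 1.17 ± 0.27 (limma adjusted p = 0.176), and replicate 1 was lowest in both groups. The mineralocorticoid receptor gene nr3c2 had 92, 108 and 80 in the morphants and 70, 69 and 62 in the controls (limma adjusted p = 0.267). The pituitary hormone gene prl, which promotes ion uptake in freshwater fish, had 23, 22 and 26 in the morphants and 37, 31 and 28 in the controls (limma adjusted p = 0.416). The groups did not overlap for prl. Of the 6 tested TRPV and TRPM channel genes, trpv6 included, 5 were positive where 50.5% of all genes were, and trpv6 alone was called. Their median was 0.18, against 0.30 with equal library totals (6 of 6 positive) and 0.10 without control 1. At an unadjusted p of 0.05, 1 was higher, trpv6 itself, and 0 lower. With equal library totals and by voom 2 were higher and 0 lower at that p. Among the relatives of trpv6, trpv1 had 68, 78 and 71 in the morphants and 51, 62 and 71 in the controls. The gene trpv4 had 150, 123 and 120 in the morphants and 129, 117 and 137 in the controls, and neither passed (limma adjusted p = 0.542 and 0.933).

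**Figure D5:**
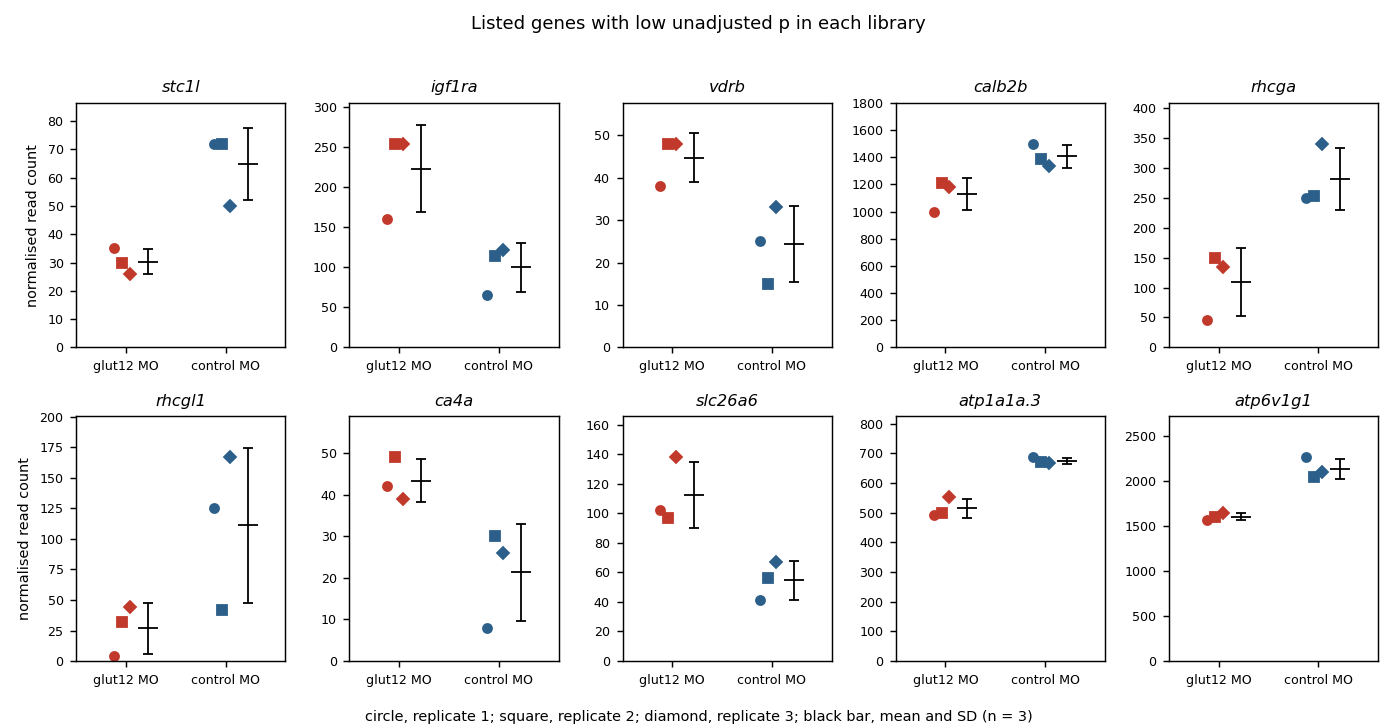
Normalised read counts (vertical axes, each from 0) of 10 listed genes with a low unadjusted p in glut12 MO (left, red) and control MO (right, blue) libraries, with mean and SD (n = 3). The groups are separated for stc1l, igf1ra, vdrb, calb2b, rhcga, ca4a, slc26a6, atp1a1a.3 and atp6v1g1 and overlap for rhcgl1. These genes were picked by hand among those with a low p between the same groups, so their separation is a description. Genes with a lower p than some of these, such as notch1b, were left out. Of all genes tested 21.8% had groups apart. None of the 10 passed adjustment over all genes.

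Markers of other cell types that whole embryos hold were set beside these values. All 16 keratinocyte markers were found, their summed values were 211734, 160750 and 176426 in the morphants and 225382, 258032 and 198511 in the controls, and 0 were called by limma. Their median was -0.18 with 10 negative, and -0.07 with 9 negative with equal library totals, where 49.5% of all genes were negative in the main comparison. Groups were apart for 1 higher and 5 lower, where 21.8% of all genes tested had groups apart. At an unadjusted p of 0.05, 0 were higher and 5 lower, but 4 higher and 4 lower with equal library totals and by voom, and with library weights 3 were called lower. That setting called 217 of all genes higher and 112 lower. The 17 rows of pronephros markers, which cover the embryonic kidney, summed to 3235, 3663 and 4104 in the morphants and 4017, 3781 and 3723 in the controls, and the groups overlapped. Among them 0 were called by limma, with 2 higher and 1 lower at an unadjusted p of 0.05, and 1 was called lower with library weights. Erythroid markers summed to 20086, 13771 and 12959 in the morphants and 20276, 20595 and 16537 in the controls, with 0 of 8 called and 2 lower at an unadjusted p of 0.05 (1 with equal library totals, and 5 with library weights, of which 1 was called). Ear and lateral line markers (0 of 7 called, with 2 higher and 2 lower at that p) summed to 2618, 2326 and 2195 in the morphants and 2605, 2275 and 2553 in the controls. Mucous cell and intestine markers (0 of 7 called, with 1 lower at that p, and 0 with equal library totals) summed to 4324, 5722 and 6701 in the morphants and 6738, 5144 and 5469 in the controls. Of the symbols listed, 5 of 12 for the ear and lateral line and 1 of 8 for erythroid cells were not found. None of the marker rows found was at 0 in all libraries, and the part of these lists in the trpv6 difference was not tested.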

How the data were processed

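RNA was sequenced from 6 pools of whole embryos, grouped and numbered by the sample titles. The authors deposited 1 score per gene, a read count divided by a library size factor and rounded to whole numbers, per the file footers and the values. Genome build Zv9 is named by the submitters' processing notes. Which aligner and counter were used, and whether strand was, is not given in the sources used here. Steps between values put the worth of 1 read between 0.708 and 1.56, but exact reads could not be recovered.

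The 26082 genes reaching a value of 1 in 3 or more libraries were compared as log2(value + 1). The test was limma 3.58.1 (R 4.3.3) on group alone with a mean-variance trend, two-sided, and p-values were adjusted by Benjamini-Hochberg at 0.05. Fold changes are on that log2 scale, morphant minus control, and understate changes of low genes. The fit and the step search were tested on simulated data. Of 164 symbols in the ion transport lists 149 were found, by file symbol or current symbol. The members and lists were chosen with earlier results of these data known. Named were slc2a12, the members, up to 4 genes a list by lowest p, the 5 genes most like trpv6 and its neighbours. Added after their values were seen, for their roles, were slc8a1b, slc9a3.2, rhcgb, atp6v1aa, atp1a1a.5, tp63, dlc, prl and trpv4. The 16 alternatives changed the scaling, filter, pseudocount, variance model, replicate block or libraries used.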

Additional observations from a re-analysis of the deposited data

How the results depend on the processing

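The log2 fold changes of trpv6, igfbp5a, gcm2 and slc12a10.2 were positive and that of foxi3b negative under all 16 alternatives. Those of atp1b1b, atp2b1a, ca2, foxi3a and stc1 lay near 0 and took both signs. With all genes, 6 were called higher and 0 lower. These counts were 11 and 3 with median-ratio scaling, 10 and 1 with equal library totals, 217 and 112 with library weights and 24 and 6 without the mean-variance trend. They were 2 and 0 with a pseudocount of 0.1, 13 and 4 with one of 5, 11 and 3 with the stricter filter (10 or more in 3 or more libraries), 6 and 1 with no filter and 8 and 2 with voom on estimated reads. With 1 library left out, 1 to 3 genes were higher and 0 to 1 lower. The number of members called higher, 1 with all libraries, was 0 without the trend (trpv6 limma adjusted p = 0.116), 0 with a pseudocount of 0.1 (0.0688), and 0 to 1 with 1 library left out. The cause of these changes was not tested. With the replicate number as a block, 2 genes were called higher and 0 lower, 0 members were called higher and trpv6 had a limma adjusted p of 0.174. Deviations of same-numbered libraries from their group means correlated at 0.10, -0.06 and 0.12 for numbers 1, 2 and 3, so the numbers were not taken to pair the libraries, and morphant 2 correlated most with control 3, at 0.212. No member was called lower under any alternative. Depth limits stc1 most, and under the stricter filter it was not tested.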
